A study of Mus musculus with 8 samples.

Results

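The Kv1 channel complex was described here through 10 genes: *Kcna1*, *Kcna2*, *Kcna3*, *Kcna4* and *Kcna6*, which encode pore-forming alpha subunits, *Kcnab1*, *Kcnab2* and *Kcnab3*, which encode cytoplasmic beta subunits, and *Lgi1* and *Adam22*, which encode a secreted ligand and its membrane receptor. The genes were chosen by name as parts of this complex, with earlier results of these data known. They are 10 of the 38553 genes in the deposited expression table, and all 10 passed the filters that left 13674 genes for testing. RNA-Seq was carried out on 4 libraries of dorsal and 4 of ventral medial entorhinal cortex (MEC), a cortical area in which grid cells and the excitable properties of stellate cells are organized along the dorsoventral axis. Both groups came from the same 13 male C57BL/6JolaHsd mice aged 8 weeks, with no treatment or engineered allele named in the labels. The right MEC of each mouse was sampled in a single 400 µm sagittal section, and dissected tissue was pooled by region over 3 or 4 mice, so that the spread between libraries is a spread between pools and not between single animals. Values are FPKM, the fragments of a gene relative to the length of its exons and to the size of the library.

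Kv1 channels open close to the resting potential and pass a potassium current that delays the first spike and restrains repetitive firing. They are assembled from alpha subunits of one or several kinds, with beta subunits docked below the pore, and they are concentrated along axons, at the initial segment, beside nodes of Ranvier and at presynaptic terminals. Fast-spiking interneurons and principal neurons both carry them. *Lgi1* is a leucine-rich secreted protein that binds the ADAM22 family of receptors and is found in complexes with Kv1 channels, and loss of *Lgi1* or of *Kcna1* causes seizures.

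The regions of the libraries need a word before any value. The 8 columns of the table are headed D1, V1, D2, V2, D3, V3, D4 and V4. The means of D1, V1, D2 and V2 equal the authors' mean for the first condition, and those of D3, V3, D4 and V4 the mean for the second, within 0.1% for 21455 of 21470 genes. The next best of the 70 assignments matched 1131 genes. The study lists the first condition as dorsal and the second as ventral, which held for 1439 of 1439 listed genes that were compared. The regions below follow this match, under which the header letter names the same region for 4 of the 8 libraries and the other region for V1, V2, D3 and D4. The assignment therefore comes from equal means, against the letters of the headers, and results for the 4 libraries on which both are the same (D1, D2, V3 and V4) and for the regions of the headers are given where they bear on a gene. Libraries are named by region and header, and values follow the order D1, V1, D2, V2 for dorsal and D3, V3, D4, V4 for ventral MEC. Total FPKM lay between 310418 and 341402 in dorsal and between 298763 and 335328 in ventral libraries, and the number of fragments per library is not given here. Over the tested genes, Pearson's correlation of log2(FPKM + 1) was 0.971 to 0.985 between libraries of the same region and 0.965 to 0.982 between libraries of different regions.

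Each of the 5 alpha subunit genes has its whole coding sequence in 1 exon, and they lie in part side by side (GENCODE M21, build GRCm38). *Kcna1* (ENSMUSG00000047976) lies at chr6:126640397-126646384 on the minus strand, 61.9 kb from *Kcna6* at chr6:126708329-126740674 on the same strand. *Kcna3* at chr3:107036169-107038070 lies 63.1 kb from *Kcna2* at chr3:107101146-107115005, both on the plus strand, and *Kcna4* lies alone at chr2:107290639-107298502 on the plus strand. The stretch of coding exon that encodes the potassium selectivity filter is shown because it is the part of the pore that the 5 proteins share, and it bears on whether reads of one alpha gene can be taken for those of another. Capitals mark the 18 bases that encode the filter, within 48 bases read from the GENCODE transcripts in the direction of the gene.
Kcna1 (chr6:126642210-126642257, minus): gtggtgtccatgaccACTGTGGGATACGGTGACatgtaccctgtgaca
Kcna2 (chr3:107105209-107105256, plus): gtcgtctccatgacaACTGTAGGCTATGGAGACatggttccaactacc
Kcna3 (chr3:107037596-107037643, plus): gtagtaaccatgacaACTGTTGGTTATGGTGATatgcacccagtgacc
Kcna4 (chr2:107296480-107296527, plus): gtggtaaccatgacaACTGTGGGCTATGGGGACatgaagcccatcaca
Kcna6 (chr6:126738629-126738676, minus): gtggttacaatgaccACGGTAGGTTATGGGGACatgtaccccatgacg
Within these 48 bases *Kcna2* differed from *Kcna1* at 15 bases and the other 3 genes at 11 each, and within the 18 capitals the differences from *Kcna1* numbered 4 in *Kcna2*, 4 in *Kcna3*, 3 in *Kcna4* and 5 in *Kcna6*. Over whole transcripts, the longest identical run between any 2 alpha genes was 17 to 31 bases over the 10 pairs, and it was 14 to 26 bases over the 3 pairs of beta genes. No pair within either family shared a window of 50 bases.

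*Kcna1*, which encodes Kv1.1, a subunit whose loss makes axons hyperexcitable, was the only one of the 10 genes called between the regions, where a call needs a Benjamini-Hochberg adjusted p under 0.05 in limma over all tested genes and a ratio of mean FPKM of at least 1.2. Of all tested genes, 3.60% were called in either direction. In dorsal libraries its FPKM was 40.3, 43.4, 42.3 and 45.6, and in ventral libraries 27.9, 30.2, 30.4 and 29.7. Every dorsal library was above every ventral library, and the spread within a region was small beside the gap between the regions. Mean FPKM was 42.9 ± 2.23 in dorsal and 29.6 ± 1.13 in ventral MEC (SD, n = 4 each), which is 1.45 times higher dorsally, with log2(V/D) = -0.54. In limma the log2 fold change of FPKM + 1 was -0.52 (SE 0.0605, 95% interval -0.66 to -0.39, adjusted p = 0.00162). An exact two-sided permutation test gave p = 0.0286, the smallest that 4 against 4 libraries allow. Any gene without overlap between the regions reaches this p, so it adds nothing to the lack of overlap. The test takes the libraries as unpaired, although both regions came from the same mice. *Kcna1* was called in all 8 fits that left out 1 library, with adjusted p between 0.00334 and 0.00942.
With the 4 libraries whose headers name the same region, the log2 fold change of *Kcna1* was -0.45 (adjusted p = 0.300 with 2 libraries a region). Since every dorsal library was above every ventral library, these 4 could not have turned the direction of *Kcna1*. With the regions as the headers name them its log2 fold change was 0.07 (adjusted p = 0.982), so the call rests on the assignment by means. In bulk tissue, fewer cells of a type and less RNA per cell cannot be told apart.

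*Kcna2*, which encodes Kv1.2, the usual axonal partner of Kv1.1, was the most abundant alpha gene in every library. Its FPKM was 55.0, 61.5, 61.5 and 69.8 in dorsal and 49.2, 53.1, 52.6 and 52.8 in ventral libraries. The regions did not overlap, but the lowest dorsal library (D1) lay close above the ventral range. The mean was 62.0 ± 6.07 against 51.9 ± 1.83 (SD, n = 4 each), with log2(V/D) = -0.26, just short of the 20% difference that a call needs, and the limma fold change of -0.25 (SE 0.0749) had an adjusted p of 0.119. The interval of this fold change ran from -0.41 to -0.08. The exact permutation test gave p = 0.0286, as for *Kcna1*. Whether *Kcna1* and *Kcna2* differ in fold change was not tested.

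*Kcna6*, which encodes Kv1.6, had FPKM of 16.6, 16.3, 17.1 and 19.1 in dorsal and 18.7, 19.3, 19.8 and 17.5 in ventral libraries, and the ranges overlapped. Its limma fold change was 0.12 (SE 0.0697, interval -0.04 to 0.27, adjusted p = 0.468). This neighbour of *Kcna1* on chromosome 6 thus had its higher mean on the ventral side, where *Kcna1* was lower. It shares 2355 of its 5945 exonic bases with the antisense gene *Gm26673*, which had an FPKM of at most 0.447. Reads in these shared bases cannot be assigned to one gene, since the use of strand in the counting is not given here.

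*Kcna4*, which encodes Kv1.4, the alpha subunit of this group that inactivates by its own N terminus, had FPKM of 13.5, 11.9, 11.1 and 11.1 in dorsal and 11.6, 12.4, 9.05 and 10.9 in ventral libraries. The ranges overlapped, and the fold change was -0.11 (SE 0.0996, interval -0.33 to 0.11, adjusted p = 0.672). It lay between -0.16 (without ventral V3) and -0.03 (without ventral D4) when 1 library was left out.

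*Kcna3*, which encodes Kv1.3, best known from T cells and microglia but also present in neurons, had the lowest level of the 10 genes and the higher of the 2 ratios above 0. Its FPKM was 2.93, 2.07, 1.97 and 1.66 in dorsal and 3.64, 3.51, 3.13 and 2.42 in ventral libraries. The dorsal library D1 lay above the ventral library V4, so the regions overlapped. The mean was 2.16 ± 0.543 against 3.17 ± 0.548 (SD, n = 4 each), with log2(V/D) = 0.56, and limma gave 0.41 (SE 0.140, interval 0.10 to 0.72, adjusted p = 0.170). The model behind this gene holds 1902 exonic bases, the least of the 10. Summed FPKM of 5 microglia markers (*Cx3cr1*, *Tmem119*, *P2ry12*, *Csf1r* and *C1qa*), none of them called and none at 0, was 36.7 to 38.6 in dorsal and 39.9 to 44.2 in ventral libraries. Of these markers 2, *Tmem119* and *C1qa*, had the lower mean on the ventral side, and only *Cx3cr1* lacked overlap between the regions. The part of these markers in the *Kcna3* values was not tested.

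**Figure D1:**
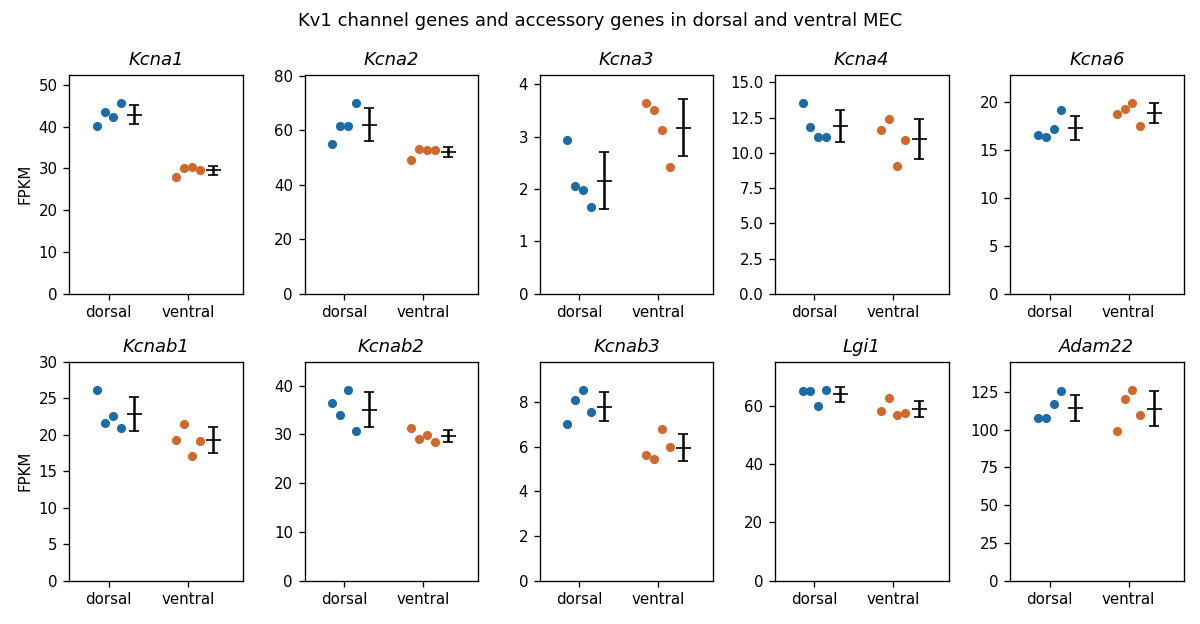
FPKM (vertical axes, each from 0) of the 10 genes in the 4 dorsal (blue) and 4 ventral (orange) libraries, in header order, with the mean and SD of each region beside the points. *Kcna1* separated the regions with a wide gap, *Kcna2* and *Kcnab3* separated them narrowly, and the other 7 genes overlapped.

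The proportions of the alpha subunits were compared next. FPKM is scaled by exon length, so the alpha genes can be summed within a library, and the share of each gene in that sum does not depend on the scaling of the library. *Kcna1* made up 31.4%, 32.1%, 31.5% and 31.0% of the alpha sum in dorsal and 25.2%, 25.5%, 26.5% and 26.2% in ventral libraries. No ventral share reached the dorsal range, and the means were 31.5% ± 0.485 and 25.8% ± 0.610 (SD, n = 4 each). *Kcna6* had the larger share on the ventral side, with 12.7% ± 0.424 of the alpha sum in dorsal and 16.4% ± 0.779 in ventral MEC, again without overlap. Shares within a library depend on each other, and a share also rises where the other genes of the sum are lower. The FPKM of *Kcna6* itself overlapped between the regions (mean 17.3 in dorsal and 18.8 in ventral MEC).
*Kcna2* held a near equal share, 45.4% ± 1.88 in dorsal and 45.3% ± 1.002 in ventral MEC. The shares of *Kcna4* (8.79% ± 1.27 against 9.61% ± 1.23) and of *Kcna3* (1.60% ± 0.487 against 2.77% ± 0.483) overlapped between the regions. The alpha sum itself was 136 ± 7.98 FPKM in dorsal and 114 ± 3.11 FPKM in ventral MEC, with no overlap. Without *Kcna1* it was 93.3 ± 5.85 against 84.9 ± 2.32, and the ranges met, since the lowest dorsal library had 88.0 and the highest ventral library 88.2 FPKM.

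Ratios within a library are likewise free of library scaling. *Kcna1* over *Kcna2* was 0.732, 0.706, 0.687 and 0.653 in dorsal and 0.568, 0.569, 0.578 and 0.564 in ventral libraries. The ventral ratios were close to each other and all below the dorsal ones. *Kcna1* over its neighbour *Kcna6* was 2.49 ± 0.123 in dorsal and 1.58 ± 0.0889 in ventral MEC (SD, n = 4 each), with no overlap. In the 4 libraries whose headers name the same region the *Kcna1* share was 5.59 percentage points lower ventrally and the *Kcna6* share 3.00 points higher. Neither direction could have turned there, since both shares lacked overlap between the regions over all libraries. With the regions of the headers the *Kcna1* share differed by 0.08 points and the *Kcna6* share by -0.76 points. These shares and ratios are descriptions and carry no test.

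**Figure D2:**
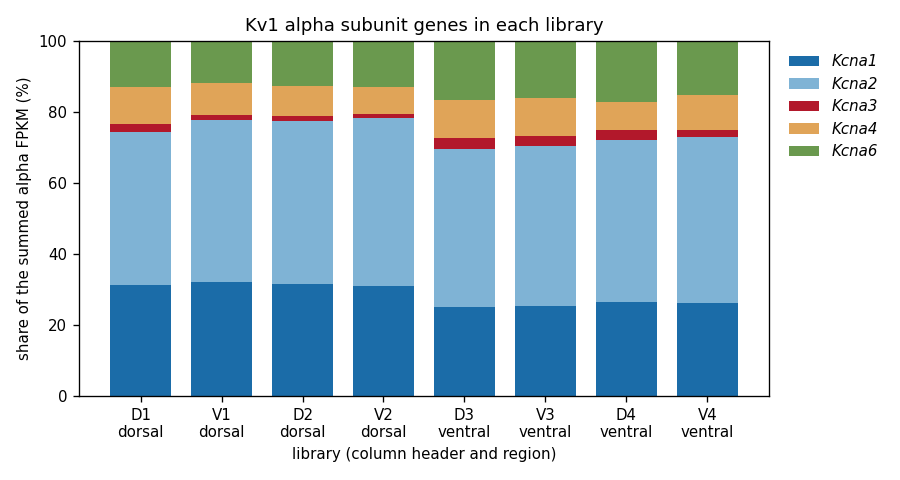
Share (%) of each of the 5 alpha subunit genes in their summed FPKM, 1 bar for each of the 8 libraries, with column header and region under the bar. The *Kcna1* segment spans 31.0% to 32.1% in the 4 dorsal and 25.2% to 26.5% in the 4 ventral libraries, and the *Kcna6* segment is larger in every ventral library. Shares within a bar depend on each other, and the FPKM of *Kcna6* itself overlapped between the regions.

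All 3 beta subunit genes had the lower mean on the ventral side, and none was called. *Kcnab3*, which encodes Kvβ3, came nearest to a call. Its FPKM was 7.02, 8.08, 8.54 and 7.56 in dorsal and 5.62, 5.43, 6.80 and 5.99 in ventral libraries. The highest ventral library (D4) stayed below the lowest dorsal library (D1), so the regions did not overlap. The mean was 7.80 ± 0.657 against 5.96 ± 0.604 (SD, n = 4 each), with log2(V/D) = -0.39, and the limma fold change was -0.34 (SE 0.0863, interval -0.53 to -0.15, adjusted p = 0.0637). *Kcnab3* passed the threshold when the ventral library D4 was left out (-0.40, adjusted p = 0.0475) and when libraries were weighted by quality (-0.36, adjusted p = 0.0390). Leaving out any other library gave an adjusted p of up to 0.173, and one total FPKM gave 0.128. With the regions of the headers the fold change of *Kcnab3* was -0.04 (adjusted p = 0.987). The exact permutation test gave its smallest possible p of 0.0286, as for any gene without overlap. *Kcnab3* lies at chr11:69326258-69333042 on the plus strand and shares 147 exonic bases with the antisense gene *Kcnab3os*, which had an FPKM between 0.245 and 1.02. Whether the counting used strand is not given in the sources used here, so reads in the shared bases cannot be assigned to one gene.

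*Kcnab1*, which encodes Kvβ1, a subunit that can confer fast inactivation on Kv1 channels, had FPKM of 26.1, 21.7, 22.6 and 20.99 in dorsal and 19.3, 21.4, 17.1 and 19.2 in ventral libraries. The ventral library V3 lay above the dorsal library V2, so the ranges overlapped. The fold change was -0.23 (SE 0.0870, interval -0.43 to -0.04, adjusted p = 0.208).

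*Kcnab2*, which encodes Kvβ2, a subunit that aids the transport of Kv1 channels to axons, was the most abundant beta gene with FPKM of 36.5, 33.9, 39.1 and 30.8 in dorsal and 31.4, 29.0, 29.9 and 28.5 in ventral libraries. Only the dorsal library V2 lay within the ventral range. The fold change was -0.23 (SE 0.0776, interval -0.40 to -0.05, adjusted p = 0.165). *Kcnab1* lies at chr3:65109384-65378223 on the plus strand and *Kcnab2* at chr4:152390742-152477871 on the minus strand. *Kcnab2* shares 125 exonic bases with *Gm16334* (FPKM 0.232 to 0.905), and *Kcnab1* shares 201 with an antisense gene that was not analysed here.

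The shares of the beta subunits overlapped between the regions. *Kcnab2* made up 53.3% ± 1.68 of the beta sum in dorsal and 54.1% ± 1.86 in ventral MEC, *Kcnab1* 34.8% ± 2.25 and 35.0% ± 2.72, and *Kcnab3* 11.9% ± 1.25 and 10.9% ± 1.33 (SD, n = 4 each). Their sum was 65.7 ± 5.18 FPKM in dorsal and 54.9 ± 1.39 FPKM in ventral MEC without overlap. The beta sum over the alpha sum was 0.485 ± 0.0627 in dorsal and 0.480 ± 0.0182 in ventral MEC, with overlapping ranges.

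*Lgi1*, at chr19:38264536-38312214 on the plus strand, had FPKM of 65.1, 65.0, 60.0 and 65.3 in dorsal and 58.0, 62.8, 57.0 and 57.6 in ventral libraries. Dorsal D2 lay below ventral V3, so the ranges overlapped. It shares 532 exonic bases with an antisense gene that was not analysed here. The mean was 63.9 ± 2.55 against 58.8 ± 2.66 (SD, n = 4 each), and the fold change was -0.12 (SE 0.0590, interval -0.25 to 0.01, adjusted p = 0.375). This interval does not hold a fold change as large as that of *Kcna1*, nor do those of *Kcna2*, *Kcna4*, *Kcna6*, *Kcnab1*, *Kcnab2* and *Adam22*. The interval of *Kcna1* itself ran from -0.66 to -0.39 and overlapped those of *Kcna2*, *Kcnab1* and *Kcnab2*. Whether *Lgi1* or any of the other genes differs from *Kcna1* in fold change was not tested.

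*Adam22*, at chr5:8072352-8368160 on the minus strand, had the highest level of the 10 genes and similar means in the regions. Its FPKM was 108, 108, 117 and 125 in dorsal and 99.5, 120, 126 and 110 in ventral libraries, and the ventral range held the whole dorsal range. The fold change was -0.01 (SE 0.0868, interval -0.20 to 0.19, adjusted p = 0.982), and its sign turned under 8 of 20 alternatives. Some of the 20, such as the filters and the other test, could not move this fold change. The authors' ventral mean for *Adam22*, 110.0, equals the mean of 3 ventral columns without D4, whereas the 4 columns average 114. For the other 9 genes the column means equal the authors' means. With the authors' mean, log2(V/D) of *Adam22* would be -0.06 in place of -0.00. The ligand over its receptor, *Lgi1* over *Adam22*, was 0.561 ± 0.0505 in dorsal and 0.520 ± 0.0540 in ventral MEC and overlapped.

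The count over the 10 genes was thus 1 called D>V and 0 called V>D, with an unadjusted p under 0.05 in limma for 6, of which 5 had the higher mean in dorsal and 1, *Kcna3*, in ventral MEC. Among all 13674 tested genes, 3.60% were called, 2.15% as D>V and 1.45% as V>D, and 16.0% had an unadjusted p under 0.05. For 3 of the 10 genes (*Kcna1*, *Kcna2* and *Kcnab3*) the libraries of the regions did not overlap, all with dorsal higher, against 11.1% of tested genes in either direction. The ratio was below 0 for 8 of the 10 genes and for 51.2% of tested genes. The median log2 fold change was -0.17 over the 10 genes and -0.01 over all tested genes. These counts are descriptions of the complex. In the 4 libraries whose headers name the same region the fold changes were -0.13 for *Kcna2*, 0.20 for *Kcna3*, -0.07 for *Kcna4*, 0.12 for *Kcna6*, -0.25 for *Kcnab1*, -0.38 for both *Kcnab2* and *Kcnab3*, -0.06 for *Lgi1* and 0.04 for *Adam22*, and none was called.

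**Figure D3:**
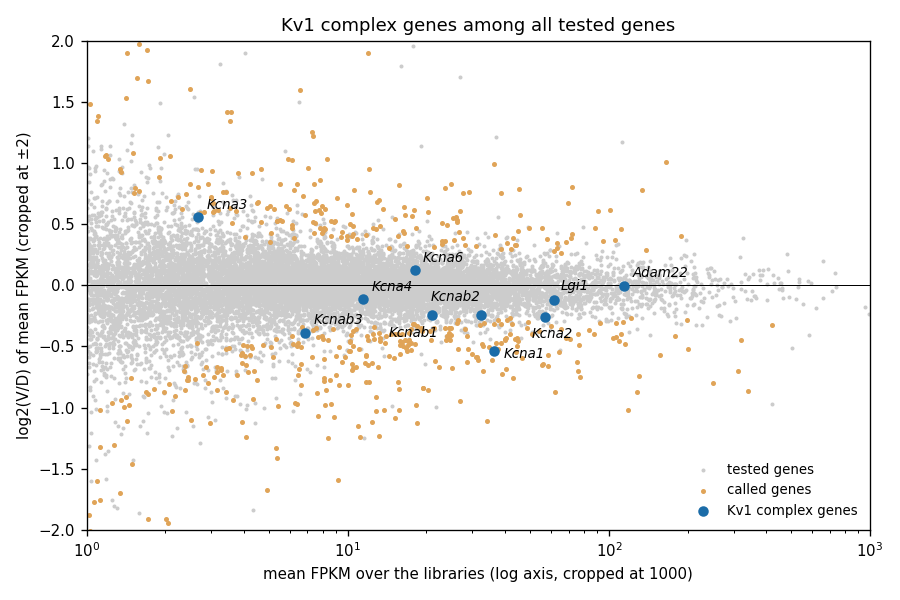
Log2 ratio of ventral to dorsal mean FPKM (vertical axis, cropped at ±2) against mean FPKM over the 8 libraries (horizontal log axis) for the tested genes (grey), the called genes (yellow) and the 10 Kv1 complex genes (blue, named). *Kcna1* lies among the called genes below 0, *Kcna3* is the highest of the 10 at 0.56, and *Adam22* lies on the zero line.

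In level the 10 genes followed nearly the same order in every library. *Adam22* averaged 114 FPKM over the 8 libraries and was above *Lgi1* (61.3) in all 8. *Lgi1* was above *Kcna2* (56.9) in 6 of 8 libraries, so this pair is not ordered beyond its spread. *Kcna2* was above *Kcna1* (36.2) in 8 of 8 libraries, and *Kcna1* above *Kcnab2* (32.4) in 7 of 8. *Kcnab2* was above *Kcnab1* (21.05) in 8 of 8, *Kcnab1* above *Kcna6* (18.0) in 7 of 8, and the last steps, to *Kcna4* (11.5), *Kcnab3* (6.88) and *Kcna3* (2.67), held in 8 of 8 libraries. *Adam22* ranked within the top 2.67% of tested genes by mean FPKM, *Lgi1* within the top 6.38% and *Kcna1* within the top 12.4%, whereas *Kcna3* ranked at 79.2%.

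Libraries of one region also differed among themselves. The dorsal library V2 had the highest value of the 4 for *Kcna1*, *Kcna2*, *Kcna6*, *Lgi1* and *Adam22* and the lowest for *Kcna3*, *Kcna4*, *Kcnab1* and *Kcnab2*. The dorsal library D1 stood at the other end for *Kcna1* and *Kcna2* (lowest) and for *Kcna3*, *Kcna4* and *Kcnab1* (highest). Coefficients of variation ran from 4.00% (*Lgi1*) to 25.1% (*Kcna3*) in dorsal and from 3.53% (*Kcna2*) to 17.3% (*Kcna3*) in ventral MEC.

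The genes whose values over the 8 libraries were most like those of *Kcna1* were *Tmem88b* (Pearson's r = 0.996, Spearman's rho = 0.881), *Tmtc1* (r = 0.995, rho = 0.905) and *Hlf* (r = 0.993, rho = 0.952), on log2(FPKM + 1). All 3 were also called D>V, with log2(V/D) of -1.09, -0.60 and -0.40. Much of such a correlation is set by the gap between the regions, which the points share, and with the mean of each region removed r was 0.899, 0.884 and 0.903. The 3 genes were picked for the highest r among the tested genes on these same libraries. Their D>V calls and their r within regions follow in part from that choice, and no background over other genes is given. These values are a description.

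The known partners of the complex were examined as a list of 15 genes, of which 12 were tested. The remaining Kv1 alpha genes *Kcna5*, *Kcna7* and *Kcna10* had too few alignments, with FPKM of at most 0.367, 0.0308 and 0.283. Of the 12 tested, 4 were called D>V and 0 V>D, where 2.15% and 1.45% of all tested genes were, 6 had no overlap between the regions against 11.1% of tested genes, *Dlg3* was the 1 gene with a higher ventral mean at an unadjusted p under 0.05 in limma, and the median log2 fold change was -0.19. Of the called genes, 2 are relatives of *Lgi1*. *Lgi3* had FPKM of 10.2, 12.4, 11.9 and 10.2 in dorsal and 6.71, 7.03, 7.15 and 6.07 in ventral libraries, with log2(V/D) = -0.73 and adjusted p = 0.00243. *Lgi2* had 19.0, 18.9, 20.7 and 20.4 in dorsal and 13.9, 13.6, 16.3 and 14.2 in ventral libraries, with log2(V/D) = -0.45 and adjusted p = 0.0102. Both were called in all 8 fits that left out 1 library. *Lgi4* did not overlap either but missed the threshold (log2(V/D) = -0.63, adjusted p = 0.0763), at a mean FPKM of 2.70 in dorsal and 1.75 in ventral MEC.

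Among the receptors, *Adam23* was called D>V with a mean FPKM of 41.3 ± 2.45 in dorsal and 33.9 ± 1.65 in ventral MEC (SD, n = 4 each; log2(V/D) = -0.28, adjusted p = 0.0444), while *Adam11* had 18.1 ± 2.01 and 18.4 ± 0.790 (adjusted p = 0.915). *Adam23* kept its call in 1 of 8 fits that left out a library, the one without ventral V3, with adjusted p of up to 0.116 in the others. At the juxtaparanode, the stretch of myelinated axon where Kv1 channels cluster, *Cntn2*, an adhesion protein that holds them there, was called with 7.49 ± 0.774 in dorsal and 5.31 ± 0.419 in ventral MEC (SD, n = 4 each; log2(V/D) = -0.49, adjusted p = 0.0247), and it kept its call in 2 of 8 such fits. *Epb41l3*, the cytoskeletal linker of that complex, had non-overlapping libraries and an adjusted p of 0.0569 (log2(V/D) = -0.37). *Cntnap2*, the third part of that complex, had 16.7 ± 1.16 and 17.5 ± 1.71 (adjusted p = 0.780).

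The PDZ scaffolds that bind the C termini of Kv1 alpha subunits had adjusted p of 0.270 or more: log2(V/D) was -0.11 for *Dlg1*, 0.07 for *Dlg2*, 0.17 for *Dlg3* and 0.13 for *Dlg4*. When each library was rescaled to one total FPKM, *Lgi2* (adjusted p = 0.0250) and *Lgi3* (adjusted p = 0.00988) were still called, and *Adam23* (adjusted p = 0.178) and *Cntn2* (adjusted p = 0.0539) were not. With the 4 libraries whose headers name the same region, or with the regions of the headers, 0 of the partners were called.

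**Figure D4:**
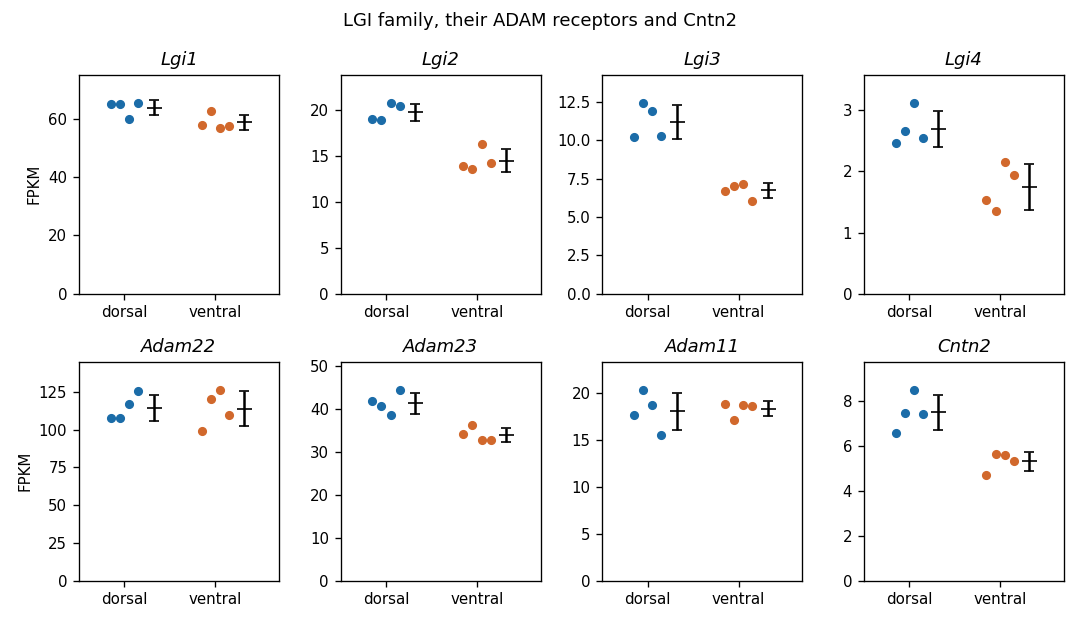
FPKM (vertical axes, each from 0) of the LGI ligand genes, their ADAM receptor genes and *Cntn2* in the 4 dorsal (blue) and 4 ventral (orange) libraries, with mean and SD of each region. *Lgi2*, *Lgi3*, *Lgi4*, *Adam23* and *Cntn2* lie higher in every dorsal library, and *Lgi1*, *Adam22* and *Adam11* overlap.

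**Figure D5:**
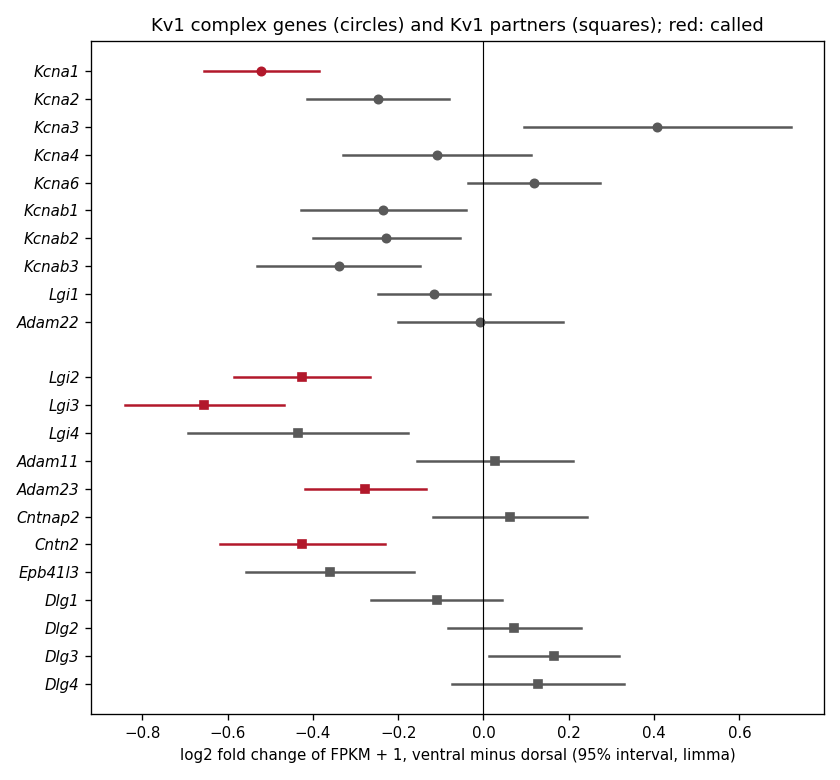
Log2 fold change of FPKM + 1, ventral minus dorsal, from limma with 95% intervals (horizontal axis) for the 10 Kv1 complex genes (circles) and the 12 tested partners (squares), with called genes in red. Of the circles only *Kcna1*, at -0.52, is red, and the red squares are *Lgi2*, *Lgi3*, *Adam23* and *Cntn2*.

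Markers of other cell types were read beside these values. The 7 oligodendrocyte markers reported here (*Mbp*, *Mog*, *Mobp*, *Mag*, *Cnp*, *Cldn11* and *Opalin*) were called D>V with a median log2 fold change of -0.86, and their summed FPKM was 581 to 779 in dorsal and 318 to 414 in ventral libraries. Of 4 markers of parvalbumin interneurons, which are rich in Kv1.1, *Pvalb* (log2(V/D) = -1.24) and *Syt2* (-1.33) were called D>V and *Tac1* V>D, with *Kcns3* not called, and their sum was 26.9 to 32.7 in dorsal and 20.3 to 21.8 in ventral libraries. The part of either list in the values of *Kcna1*, *Kcnab3* or *Cntn2* was not tested. None of the 3 GABAergic markers was called (sum 128 to 132 in dorsal and 124 to 137 in ventral libraries), nor any of the 4 glutamatergic markers (542 to 694 and 561 to 725), 5 astrocyte markers (154 to 164 and 171 to 185) or 4 endothelial markers (17.5 to 21.3 and 14.5 to 18.8). The GABAergic sum joins opposite differences. *Gad1* was higher in every dorsal library (mean 60.9 against 54.9 FPKM) and *Gad2* in every ventral library (62.2 dorsal, 68.5 ventral), while *Slc32a1* overlapped.
The layer II markers *Reln*, *Calb1* and *Wfs1* summed to 104 to 123 in dorsal and 86.7 to 101 in ventral libraries, with *Wfs1* called D>V and *Calb1* V>D. Markers of the dentate gyrus and choroid plexus were low. The sum was 3.35 to 5.37 FPKM over 4 dentate gyrus markers and 0.862 to 1.40 over 3 choroid plexus markers. In each of these lists 1 gene was tested and not called. No marker was read for the tissue that the dissection took care to leave out, such as ventral entorhinal, parasubicular, postrhinal and subicular tissue.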

How the data were processed

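RNA from dorsal and ventral MEC (RIN 7.1 to 8.5) was amplified from 120 ng and sequenced as paired ends. According to the study's methods and the submitters' processing notes, reads were processed with CASAVA 1.8, aligned with TopHat 2.0.8 to Ensembl release 73 (GRCm38) and quantified with Cuffdiff 2. The deposited FPKM values are those the authors obtained from Cuffdiff 2, summed over the transcripts of a gene and scaled between libraries. FPKM holds no counts, so depth and counting error are not given here, and the spread between replicates stands for the precision. The authors' fold changes, p-values and q-values were not used, except for the status that marks too few alignments (default minimum of 10). A long table of fragment estimates gives libraries by condition and number, which the labels do not match to single samples. Its 4 columns of values per sample stayed unused, and no count test was run. The regions of the FPKM columns were not checked against it. Those columns too are tied to a region and not to single samples.

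Genes were tested where alignments sufficed and FPKM averaged at least 1. Regions were compared unpaired by limma 3.58.1 in R 4.3.3, with log2(FPKM + 1) as the response and a variance trend. Fold changes on this scale understate those of genes with low FPKM. Calls needed an adjusted p (Benjamini-Hochberg) under 0.05 and also a ratio of 1.2, which is 0.26 on the log2 scale. Shares, ratios and figures used Python 3.11.15, NumPy 2.4.6, SciPy 1.17.1, pandas 2.3.3 and matplotlib 3.10.9. The text names the 10 genes, the partner list, marker genes where their list is given, and the 3 genes most correlated with each called member. The list of partners and that of oligodendrocyte markers each hold 1 more gene in the design that is not reported here, so counts over these lists cover the remaining genes. The members and lists were chosen with earlier results of these data known. Alternatives covered the constant added, the filters, the fold threshold, scaling, sample weights, the variance trend, the test, each library left out and the regions of the libraries.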

Additional observations from a re-analysis of the deposited data

Results flagged for a closer look

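In each region, the highest and lowest of the 4 libraries were compared with their neighbours for the 10 genes. Of the 20 groups examined, 2 had a library whose gap to the nearest other, divided by the range, passed Dixon's 95% critical value, where chance flags about 1 in 20. The ventral library headed D3 had the lowest *Kcna2*, 49.2 FPKM (gap ratio 0.880), and its header names the other region. The dorsal library headed D2 had the lowest *Lgi1*, 60.0 FPKM (gap ratio 0.930). Without D3 or without D2, neither *Kcna2* nor *Lgi1* was called.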

How the results depend on the processing

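The regions of the libraries decided most. With the regions of the headers, 0 of the 10 genes and 0 partners were called, and 1 gene D>V and 0 V>D among all genes (721 at an unadjusted p under 0.05). The log2 fold change then reversed for *Kcna1* (0.0727, ratio 0.0806), *Kcna2* (0.112), *Kcna3* (-0.208), *Kcna4* (0.0385), *Kcna6* (-0.000909), *Lgi1* (0.0604) and *Adam22* (0.0439), and shrank for *Kcnab1* (-0.23 to -0.02), *Kcnab2* (-0.23 to -0.15) and *Kcnab3* (-0.34 to -0.04). With the 4 libraries on which both agree, limma called 0 of the 10 genes, 0 partners and 0 of all genes in either direction (1240 at an unadjusted p under 0.05, with fewer samples), and *Adam22* reversed (0.0365). *Adam22* also reversed with one total FPKM (0.0417), quantile normalization (0.0219) and without D2, V2, D3 or V4, in a range from -0.0578 (without D4) to 0.0557 (without D3). With one total FPKM, D>V calls numbered 195 in place of 294 and partner calls 2 in place of 4, the share of D>V among calls was 49.2% in place of 59.8%, and the median of all genes moved from -0.01 to 0.04. Sample weights called 2 of the 10 genes. Leaving out 1 library gave 157 to 341 D>V calls (lowest without V1) and 91 to 191 V>D calls in place of 198 (lowest without V1 or D3), 1 to 2 of the 10 genes and 2 to 5 partners (2 without V1, D2, V2, D3, D4 or V4). The causes were not tested. *Kcna1* was called under every other alternative run. *Kcna3* fell below the filter at a mean FPKM of 5 and has no value there. No paired analysis was possible because the columns carry no number that the labels tie to a group of mice.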
